A study of Mus musculus with 8 samples.

Results

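Messenger RNA of the voltage-gated calcium channel subunits Cacna1c, Cacna1h, Cacna2d1, Cacnb2 and Cacnb3 was examined in mouse aorta after deletion of serum response factor (SRF) in smooth muscle. The members were all probe sets annotated to exactly 1 of these 5 symbols. This gave 11 probe sets of 4 genes, among 18193 genes named on the arrays: 2 of Cacna1c, 2 of Cacna1h, 5 of Cacna2d1 and 2 of Cacnb2. The annotation used here lists no probe set under Cacnb3 alone, so that gene has no value in the results that follow. Of the 11 probe sets, 10 passed a filter on dim signals and were tested, and a dim probe set of Cacna1h was not. In the mouse genome (GRCm38.p6) Cacna1c lies at chr6:118587240-119197384, Cacna1h at chr17:25374285-25436334, Cacna2d1 at chr5:15934264-16374511, Cacnb2 at chr2:14603861-14988811 and Cacnb3 at chr15:98628436-98644536, by RefSeq.

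The mutant mice were SRF-flex2neo -SM22CreERT2ki/+, which carry the SRF-flex2neo allele and a tamoxifen-inducible Cre recombinase knocked into Tagln, whose product SM22 is a marker of smooth muscle. The controls were SRF-flex2neo littermates without the Cre. Both groups were 4 months old, both received 1 mg of tamoxifen intraperitoneally for 3 days, and the aorta was taken for RNA 8 days after tamoxifen. Each group has 4 arrays, and the titles divide the 8 arrays into 2 sets. Set 1 holds mutants 1 and 2 with controls 1 and 2, and set 2 holds mutants 3 and 4 with controls 3 and 4. The labels do not say what a set stands for or whether each array came from its own mouse. The p-values therefore measure how far these arrays differ, and part of that may be technical. The controls lack the Cre insertion in Tagln, so genotype here means the SRF deletion and that insertion together.

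Voltage-gated calcium channels open when the membrane depolarizes and let calcium into the cell. The pore is formed by an alpha-1 subunit. In L-type channels, an intracellular beta subunit and a largely extracellular alpha-2/delta subunit bring the pore to the membrane and tune its gating, whereas T-type pores do not need these partners. In arterial smooth muscle the L-type channel built on Cacna1c carries the calcium current that drives contraction and sets vascular tone.

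The arrays had medians of 3.72 to 3.98 on the log2 scale. Mutant 2 stood apart: it correlated with the other arrays at 0.961 to 0.974 across probe sets, where the other 7 arrays correlated at 0.983 to 0.997 among themselves, so the members' results are also given without it. The targeted gene, Srf, averaged 10.10 ± 0.38 in mutants and 10.30 ± 0.17 in controls (log2 value, SD, n = 4 each) in its brighter probe set, a difference of -0.20 (SE 0.19, limma adjusted p = 0.686) that was -0.01 without mutant 2. Where its probes lie relative to the deleted part of Srf is unknown here, and its value therefore does not check the deletion. Smooth muscle markers were bright in every array, and all 8 of them had a lower mean in mutants, against 55% of all genes tested. Tagln, which carries the Cre insertion in mutants only, is 1 of the 8. The average of the 8 smooth muscle markers ran from 12.98 to 13.18 in mutants and from 13.39 to 13.57 in controls, and the groups did not overlap. In RNA of a whole tissue, fewer cells of a type and less RNA per cell cannot be told apart.

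SRF binds a DNA element known as the CArG box, and the promoters of the members were searched for it. The 250 bases upstream of each start site used were taken from RefSeq (GRCm38.p6). This gave 6 such windows for Cacna1c, Cacna2d1 and Cacnb2 together and none for Cacna1h. All 6 lie inside the gene spans given above, so the bases upstream of the outermost end of each span were not searched. The consensus CArG box occurred in 0 of these 6 windows, and in 1.47% of all 32851 promoter windows of the same length. The letters TATAAA, on either strand, occurred in 0 of the 6 and in 12.4% of all windows. The letters GGGCGG, on either strand and counted with overlaps, occurred in 3 of the 6 and in 32.7% of all windows. Cacnb3, which has no value here, has 2 windows that are not among the 6. Both lack the CArG box and TATAAA, and only chr15:98634517-98634766 holds GGGCGG (3 copies). Of the windows below, 3 hold that motif, and its letters or those of its reverse complement are in capitals. They are shown as start regions of the 3 genes whose probe sets were all lower in mutants, with a second Cacna1c start that lacks the motif for contrast. Absence of a motif says only that its letters are not in the window.
Cacna1c, GC-rich start, chr6:119108496-119108745, minus strand: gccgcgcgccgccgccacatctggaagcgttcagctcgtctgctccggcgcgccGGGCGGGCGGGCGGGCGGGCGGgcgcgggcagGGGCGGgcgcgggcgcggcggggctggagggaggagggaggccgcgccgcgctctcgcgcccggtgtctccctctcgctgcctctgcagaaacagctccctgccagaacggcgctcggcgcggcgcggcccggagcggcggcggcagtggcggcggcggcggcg
Cacna1c, start without the motif, chr6:119196410-119196659, minus strand: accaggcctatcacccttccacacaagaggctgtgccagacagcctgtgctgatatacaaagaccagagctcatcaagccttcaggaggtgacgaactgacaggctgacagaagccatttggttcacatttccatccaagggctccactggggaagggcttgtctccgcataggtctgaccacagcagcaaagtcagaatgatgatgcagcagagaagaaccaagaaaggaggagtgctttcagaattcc
Cacna2d1, chr5:15934441-15934690, plus strand: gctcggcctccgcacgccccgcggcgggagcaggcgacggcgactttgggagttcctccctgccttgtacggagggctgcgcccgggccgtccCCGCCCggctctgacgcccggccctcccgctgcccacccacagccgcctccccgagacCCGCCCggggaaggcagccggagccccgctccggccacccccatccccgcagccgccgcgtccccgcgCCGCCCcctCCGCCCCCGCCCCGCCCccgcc
Cacnb2, start with the motif, chr2:14604056-14604305, plus strand: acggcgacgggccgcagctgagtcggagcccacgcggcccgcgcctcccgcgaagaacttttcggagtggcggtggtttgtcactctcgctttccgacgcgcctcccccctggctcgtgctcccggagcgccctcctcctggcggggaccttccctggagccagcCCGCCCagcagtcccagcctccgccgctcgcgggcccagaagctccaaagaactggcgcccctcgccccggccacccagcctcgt
The GC-rich Cacna1c window holds 6 overlapping or separate copies of GGGCGG and is 82.8% G and C. The other Cacna1c window holds 0 copies and is 51.6% G and C. The Cacna2d1 window, at 82.4% G and C, holds 6 copies, all on the opposite strand, and the Cacnb2 window, at 73.2%, holds 1.

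Cacna1c encodes the pore of the L-type channel Cav1.2. Its probe set 1421297_a_at read 8.27, 7.81, 7.81 and 7.72 in mutants 1 to 4 and 8.70, 8.73, 8.23 and 8.07 in controls 1 to 4 (log2 values). Within each set both mutants lay below both controls, but mutant 1 of set 1 lay above both controls of set 2, so the groups overlapped over all 8 arrays. The means were 7.90 ± 0.25 in mutants and 8.43 ± 0.33 in controls (SD, n = 4 each). The limma difference, with the set as a term, was -0.53 (SE 0.12), which is 69.3% of the control level with a 95% interval of 56.5% to 84.9%. Its unadjusted p of 0.00381 became 0.384 once adjusted (Benjamini-Hochberg, 27021 probe sets), so Cacna1c did not pass. Ignoring the sets, an exact permutation of the genotype labels gave a two-sided p of 0.0857, and no p under 0.0286 can arise with 4 arrays a group.

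The difference of this probe set was -0.68 in set 1 and -0.39 in set 2, so each set alone had the same sign. Without mutant 2 it was -0.41 (SE 0.07, limma adjusted p = 0.314), and leaving out any array in turn gave -0.59 to -0.41. The other Cacna1c probe set, 1435730_at, has the same mean over the 8 arrays (8.17), and 1421297_a_at was taken for the gene by its place in the table. It read 8.03, 7.80, 8.30 and 8.00 in mutants and 8.41, 8.41, 8.15 and 8.24 in controls. Mutant 3 lay above both controls of its set, and the groups overlapped. Its difference was -0.27 (SE 0.13, limma adjusted p = 0.553), with -0.50 in set 1, -0.05 in set 2 and -0.18 without mutant 2. The probe sets of Cacna1c therefore share a sign but differ in size, most in set 2.

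**Figure D1:**
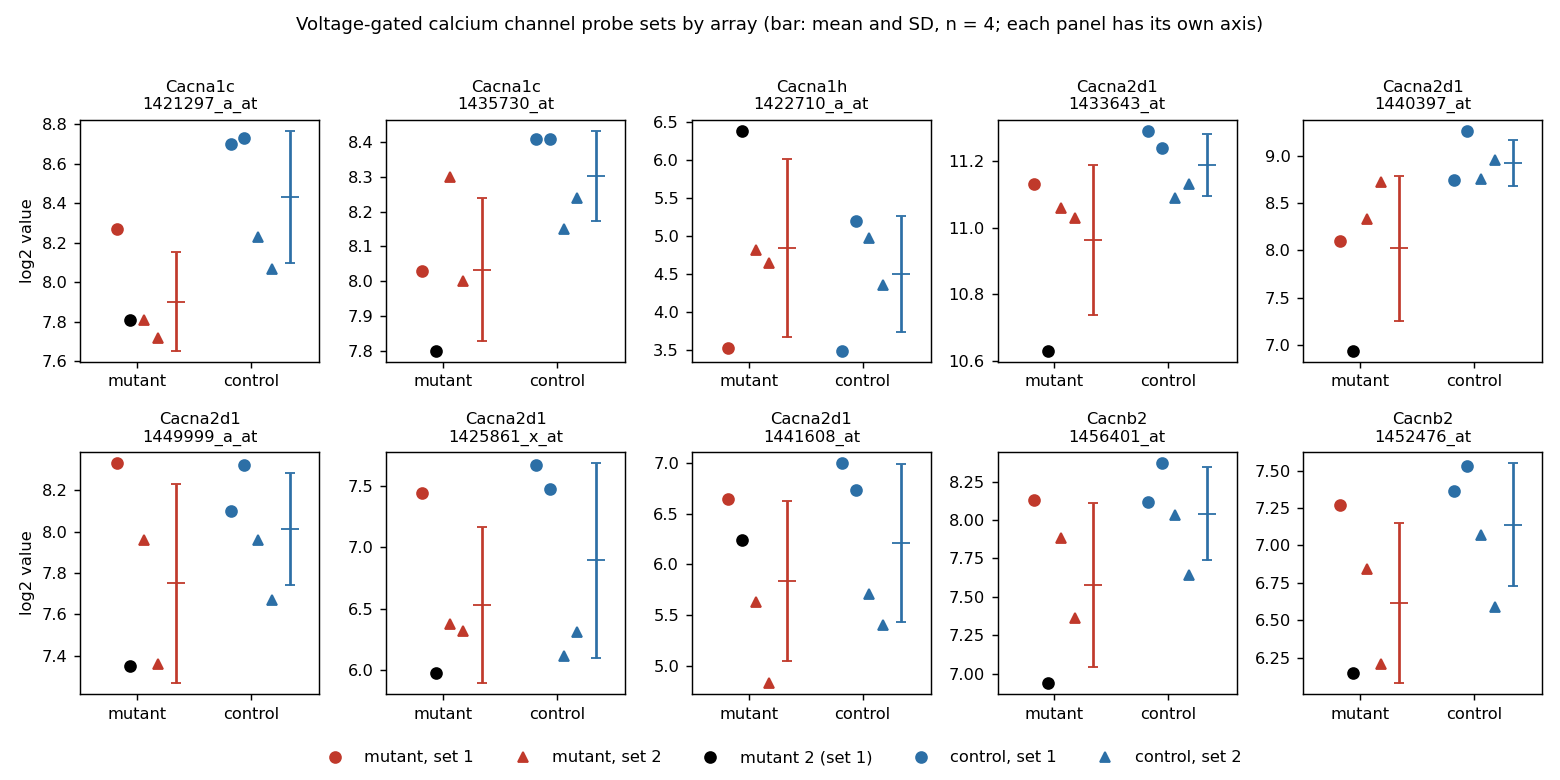
Log2 values of the 10 tested probe sets (vertical axis) in mutant and control arrays, with circles for set 1, triangles for set 2, black for mutant 2 and bars for the mean and SD of 4 arrays. In 7 of the 10 panels mutant 2 is the lowest array, and only Cacna2d1 1440397_at shows every mutant below every control.

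Cacna2d1 encodes the alpha-2/delta-1 subunit, the binding site of gabapentin drugs and a helper that raises the number of channels at the membrane. Its brightest probe set, 1433643_at, read 11.13, 10.63, 11.06 and 11.03 in mutants and 11.29, 11.24, 11.09 and 11.13 in controls. Mutant 2 was by far the lowest array, while mutant 1 equalled control 4. The means were 10.96 ± 0.23 in mutants and 11.19 ± 0.09 in controls (SD, n = 4 each), a difference of -0.23 (SE 0.12, limma adjusted p = 0.579, two-sided exact permutation p = 0.0857). It was -0.39 in set 1, -0.07 in set 2 and -0.09 without mutant 2 (SE 0.05).

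The probe set 1440397_at of Cacna2d1 had the largest difference among the members. It read 8.10, 6.94, 8.33 and 8.72 in mutants and 8.74, 9.26, 8.75 and 8.95 in controls. Every mutant lay below every control, though mutant 4 of set 2 nearly reached control 1 of set 1. This is a separation that 1.57% of all probe sets tested showed in that direction and that 1 of the 10 tested member probe sets showed. The difference was -0.90 (SE 0.34, 95% interval -1.71 to -0.09), its unadjusted p was 0.0336 and its limma adjusted p was 0.503. It was -1.48 in set 1 and -0.33 in set 2, and -0.56 without mutant 2 (SE 0.19, limma adjusted p = 0.517). The sets were not shown to differ in this contrast (interaction 1.16, SE 0.56, limma adjusted p = 0.824).

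The other 3 Cacna2d1 probe sets had intervals that span 0. The difference of 1449999_a_at was -0.26 (SE 0.24) over all arrays and -0.05 without mutant 2. That of 1441608_at was -0.38 (SE 0.21) over all arrays and -0.28 without mutant 2. The difference of 1425861_x_at was -0.36 (SE 0.35), and it turned to 0.03 without mutant 2. Affymetrix marks with _x_at a probe set whose probes can match other transcripts too. In set 2 that probe set read 6.38 and 6.32 in mutants and 6.12 and 6.31 in controls, so the mutants were not lower there. Over the 5 probe sets of Cacna2d1 the differences thus ran from -0.90 to -0.23, all negative, with no adjusted p under 0.5. Pairs of these probe sets correlated at 0.46 to 0.97 over the 8 arrays once the mean of each set was removed, and 1440397_at and 1441608_at were the least alike. Mutant 2 held 22.6% to 72.2% of the squared deviations from the set means in these probe sets, and r was not taken without it.

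Cacnb2 encodes a beta subunit, which binds the pore from inside the cell. Its brightest probe set, 1456401_at, read 8.13, 6.94, 7.88 and 7.36 in mutants and 8.12, 8.37, 8.03 and 7.64 in controls. Mutant 2 was the lowest array and mutant 1 lay beside control 1, so the groups overlapped. The means were 7.58 ± 0.53 in mutants and 8.04 ± 0.30 in controls (SD, n = 4 each), and the difference was -0.46 (SE 0.29, limma adjusted p = 0.602, two-sided exact permutation p = 0.229). Without mutant 2 the difference was -0.18 (SE 0.17). The second probe set, 1452476_at, read 7.27, 6.15, 6.84 and 6.21 in mutants and 7.36, 7.53, 7.07 and 6.59 in controls. It differed by -0.52 (SE 0.29, limma adjusted p = 0.580), and by -0.25 without mutant 2. With set means removed, both Cacnb2 probe sets gave the same pattern over the 8 arrays (r = 0.992), so they differ in brightness and hardly in pattern. Mutant 2 held 60.1% and 54.2% of their squared deviations from the set means, and r was not taken without it.

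Cacna1h encodes the T-type pore Cav3.2, which opens at more negative voltages than L-type channels and closes quickly. Its brighter probe set, 1422710_a_at, read 3.53, 6.38, 4.81 and 4.64 in mutants and 3.49, 5.20, 4.97 and 4.36 in controls. Mutant 2 was the highest of the 8 arrays, mutant 1 and control 1 were the lowest, and the other 5 arrays lay between 4.36 and 5.20. The means were 4.84 ± 1.17 in mutants and 4.51 ± 0.76 in controls (SD, n = 4 each). The difference was 0.34 (SE 0.66, 95% interval -1.22 to 1.89, limma adjusted p = 0.852, two-sided exact permutation p = 0.686), and it turned to -0.29 without mutant 2 and to -0.06 without control 1. An interval of this width bounds the level in mutants only to 43.0% to 370% of that in controls. The other probe set, 1427607_at, read 2.02 to 2.07 in mutants and 2.02 to 2.08 in controls, below the filter (lowest mean kept 2.97), and was not tested.

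**Figure D2:**
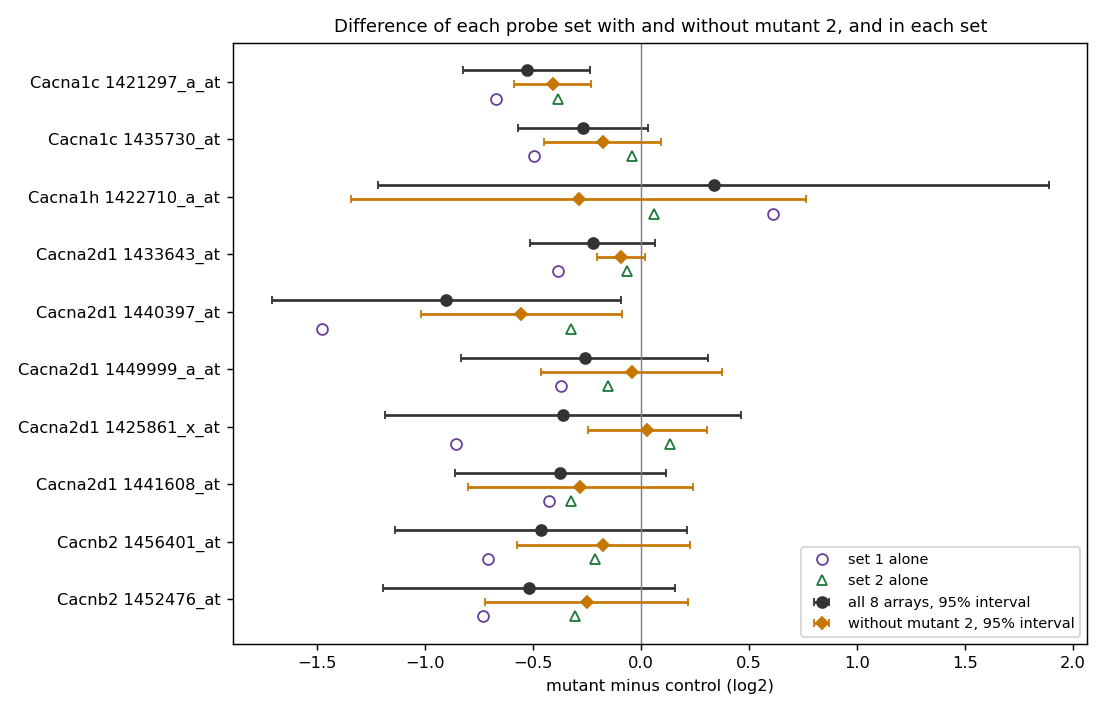
Mutant minus control on the log2 scale (horizontal axis) for the 10 tested probe sets, with limma 95% intervals over all 8 arrays (grey) and without mutant 2 (orange). Open symbols give the difference within set 1 alone (circles) and within set 2 alone (triangles). The intervals of Cacna1c 1421297_a_at (-0.82 to -0.24) and Cacna2d1 1440397_at (-1.71 to -0.09) lie below 0 with and without mutant 2, and the other 8 span 0.

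Read together, the members had 9 of 10 tested probe sets lower in mutants, against 59.9% of all probe sets tested, and their median difference was -0.37, against -0.035 for all. Probe sets annotated to the same gene are not independent measures, and 5 of these 10 belong to Cacna2d1, so the count speaks of 4 genes. Whether those of a gene read the same transcript was not tested. At an unadjusted limma p under 0.05 there were 2 member probe sets, both lower, where 5.05% of all probe sets (1364) were lower and 4.5% (1217) higher. With each array centred on its median, those 2 counts over all probe sets were 1666 lower and 955 higher. After adjustment 0% of the 27021 probe sets passed, members included. In 8 of 10 member probe sets the mutants were lower in both sets, against 35.2% of all. Mutant 2 was the lowest of the 8 arrays in 7 of 10 member probe sets, against 35.4% of all, and it held 22.6% to 72.2% of the squared deviations from the set means in the tested member probe sets. Without it, the differences of the 9 lower probe sets were -0.56 to 0.03. No member passed the test of a different contrast in the sets, which 0.0518% of all probe sets passed.

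The set term passed for 1 of 10 member probe sets, a smaller share than the 21.4% of all probe sets that passed. It was Cacna2d1 1441608_at, which was lower in set 2 by 1.27 on the log2 scale (set 2 minus set 1 -1.27, SE 0.21, limma adjusted p = 0.00709). That probe set read 5.63 and 4.83 in mutants and 5.71 and 5.40 in controls of set 2, and 6.65 and 6.24 in mutants and 7.00 and 6.74 in controls of set 1. Every array of set 2 was below every array of set 1 there, whereas the genotype difference was -0.33 in set 2 and -0.43 in set 1. Cacna1c 1421297_a_at was lower in set 2 too (-0.42, SE 0.12, limma adjusted p = 0.0535) and did not pass.

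Markers of other cells of the vessel wall also differed between the genotypes in the same arrays. The mean of 8 fibroblast markers was 11.33 to 11.57 in mutants and 10.02 to 11.28 in controls. All 8 genes had a higher mean in mutants, where 55% of all genes tested were lower. The groups did not overlap in this average, but control 3 (11.28) came close, with the other controls at 10.02 to 10.29. All 8 leukocyte markers were higher too, at 6.14 to 7.39 in mutants and 5.19 to 6.05 in controls, again without overlap. Control 3 (6.05) was again close to the mutants, with the other controls at 5.19 to 5.54. All 8 endothelial markers were higher as well, but their averages of 7.64 to 9.81 in mutants and 7.00 to 7.98 in controls overlapped. The 6 measured fat markers averaged 11.82 in mutant 2 and 7.92 to 9.30 in controls, with mutant 1 above the controls and mutants 3 and 4 among them. The 8 striated muscle markers, which would accompany the skeletal or cardiac forms of the channel, ran from 3.42 to 5.54 in mutants and from 3.39 to 7.00 in controls, with no separation. The part of these markers, and of the lower smooth muscle markers, in the values of Cacna1c, Cacna2d1 and Cacnb2 was not tested.

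**Figure D3:**
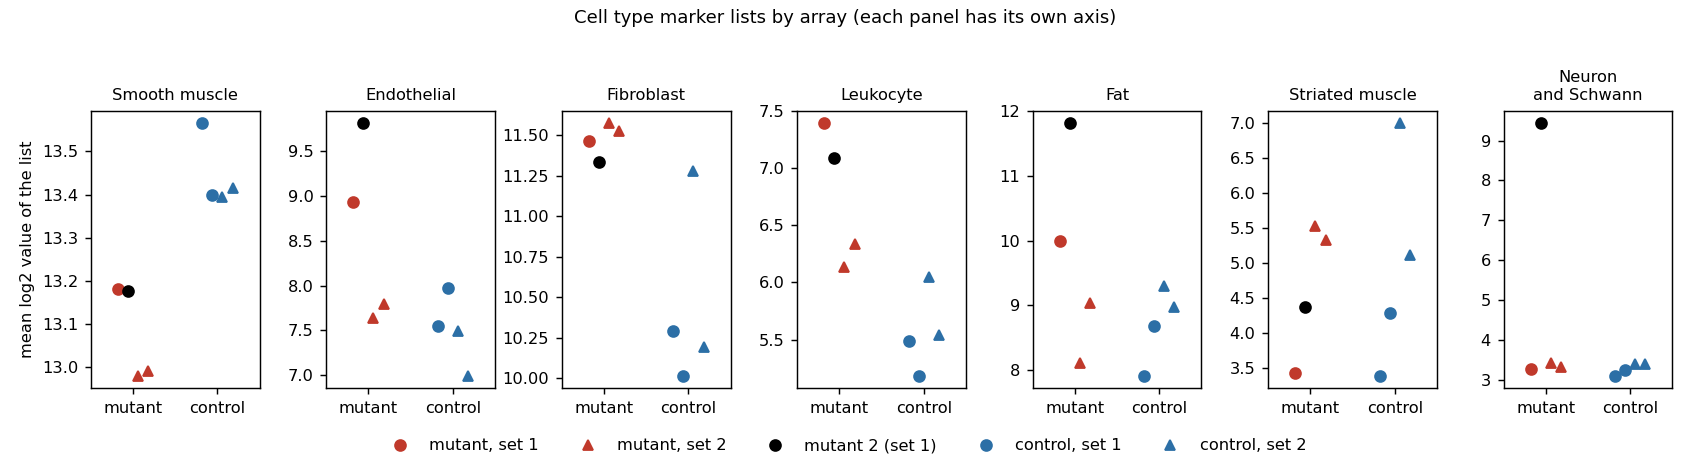
Mean log2 value (vertical axis) of 7 cell type marker lists in each array, with circles for set 1, triangles for set 2 and black for mutant 2. Smooth muscle markers are lower in all 4 mutants, fibroblast markers are higher in all 4, and the neuron and Schwann list is at 9.43 in mutant 2 against 3.12 to 3.43 in the other 7 arrays.

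The neuron and Schwann list singles out mutant 2 most. Th, the first enzyme of catecholamine synthesis, read 9.92 in mutant 2, 2.18 to 2.19 in the other mutants and 2.15 to 2.20 in controls. Dbh, a later enzyme of that pathway, read 11.66 in mutant 2, 2.90 to 2.95 in the other mutants and 2.77 to 3.19 in controls. Of 44 probe sets of other channel subunits, 11 were highest in mutant 2. The matching share over all probe sets is not given here, so that count alone says nothing particular about these subunits. Probe sets of Cacna1b, Cacna2d3, Cacng5 and Cacnb1, picked after their values were seen, stood out in mutant 2. Cacna1b, the N-type pore of nerve terminals, read 7.63 in mutant 2, 3.14, 3.30 and 3.24 in mutants 1, 3 and 4, and 3.11 to 3.31 in controls in probe set 1460608_at, and its difference of 1.13 was 0.01 without mutant 2. Cacna2d3 read 4.36 in mutant 2 and 2.59 to 2.65 in all other arrays. Cacng5 probe set 1434785_at read 4.21 in mutant 2 and 1.91 to 1.97 in all others. The other Cacng5 probe set, 1426330_at, was lowest in mutant 2 (1.89 against 1.93 to 2.05). Cacna1b 1436602_x_at and 1439612_at were also highest in mutant 2 (6.96 and 6.52). Cacna1b 1425812_a_at, under the filter, was not (1.70 against 1.68 to 1.73). Cacnb1 probe set 1440940_at read 3.89 in mutant 2 and 2.28 to 2.39 in all others. The brightest Cacnb1 probe set, 1426108_s_at, read 4.89 in mutant 2 and 4.95 to 5.06 in the others. The probe sets given for Cacna2d3 and Cacng5 were under the filter, as was Cacnb1 1440940_at. Other subunits known from neurons were mixed. Cacna1e probe set 1436260_at read 3.22 in mutant 2 and 3.29 to 3.95 in the other arrays. Cacng2 probe set 1453363_at read 3.65 there and 3.61 to 3.86 in the others. By contrast, Cacnb4 probe set 1436912_at was highest in mutant 2, at 5.68 against 4.04 to 5.37. Cacna1a probe set 1450510_a_at was highest there by little (3.26 against 2.88 to 3.15), and the other Cacna1a probe sets were not. Cacna1h was highest in mutant 2 as well (6.38), and the part of nerve tissue in that value was not tested.

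**Figure D4:**
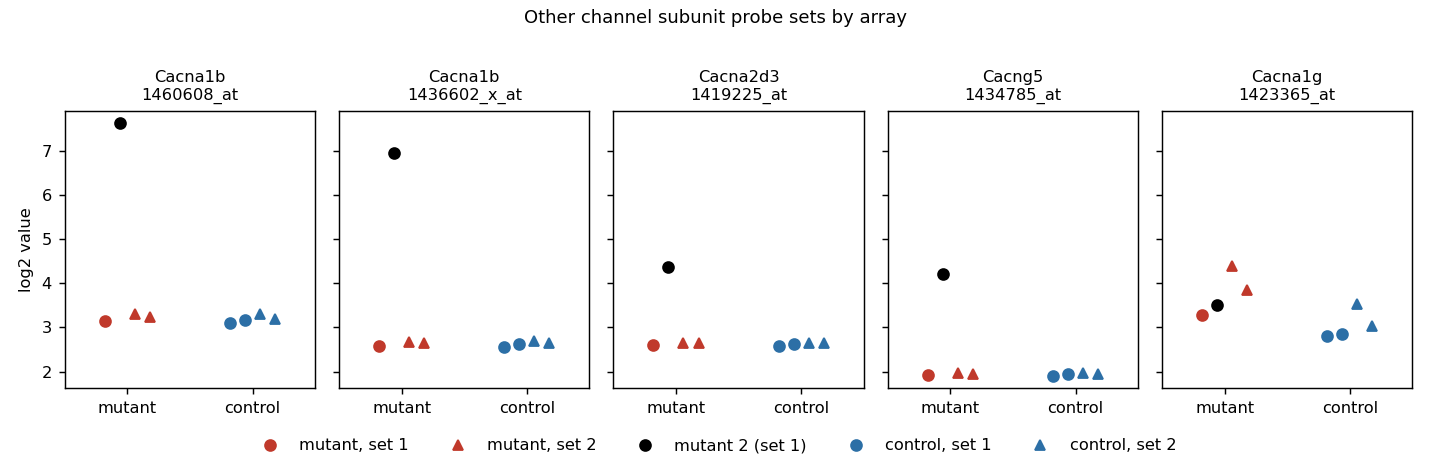
Log2 values (vertical axis) of 5 probe sets of other channel subunits in mutant and control arrays, with circles for set 1, triangles for set 2 and black for mutant 2. The probe sets shown of Cacna1b, Cacna2d3 and Cacng5 are high in mutant 2 alone. That of Cacna1g is higher in both mutants than in both controls of set 1 and is highest in mutants 3 and 4.

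Of the other 21 genes of the family, 20 had a probe set named on the array and 11 had a tested one, the remaining 9 lying under the filter. Among the 11, 6 were lower and 5 higher, the median difference was -0.01 (all genes tested -0.02, 55% lower), and 0 passed. Cacna1g, the T-type pore Cav3.1, had the smallest p. It read 3.28, 3.50, 4.39 and 3.85 in mutants and 2.81, 2.85, 3.54 and 3.03 in controls. Both mutants were above both controls in each set, although control 3 was above mutants 1 and 2. The difference was 0.70 (SE 0.16, limma adjusted p = 0.384) and 0.68 without mutant 2, at a signal in the lower part of the range (mean 3.41, lowest mean kept 2.97). Cacna1d, the L-type pore Cav1.3, differed by -0.23 (SE 0.15), and by -0.08 without mutant 2. Cacna1e, an R-type pore, differed by -0.18 (SE 0.12) and the beta subunit Cacnb1 by -0.01 (SE 0.08), a value that was 0.02 without mutant 2. At an unadjusted p under 0.05, Cacna1g was the 1 gene higher of 11 and none was lower, beside 5.8% higher and 4.6% lower over all genes tested.

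Regulators and binding partners of the channel were next. Of 16 tested genes 12 were lower (55% of all genes), with a median difference of -0.13, and 0 passed. At an unadjusted p under 0.05, 4 were lower and 1 higher, where 4.6% of all genes were lower and 5.8% higher. Camk2d and Camk2g, subunits of the calmodulin kinase that facilitates L-type current, differed by -0.27 (SE 0.07, limma adjusted p = 0.398) and -0.36 (SE 0.10, limma adjusted p = 0.440). Gem, a small G protein that inhibits the channel through its beta subunit, read 8.5, 7.75, 9.0 and 9.0 in mutants and 8.75, 8.62, 9.67 and 9.30 in controls, a difference of -0.52 (SE 0.17, limma adjusted p = 0.466) that was -0.37 without mutant 2. Mutants were below the controls of their own set, and the sets lay apart. The other 2 of the 5 genes, named after their values were seen, were Jph2, which ties the surface membrane to calcium stores (-0.52, and -0.35 without mutant 2), and the calcineurin subunit Ppp3ca (0.34). The most abundant by signal, Ahnak, a large protein that binds beta subunits, differed by -0.04 (SE 0.05), and Prkaca, a catalytic subunit of protein kinase A, by 0.12 (SE 0.13), a value that vanished without mutant 2 (-0.006).

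Among 14 tested genes of other calcium entry routes or linked to them, 9 were lower (55% of all genes), the median difference was -0.07 and 0 passed. Slc8a1, the sodium-calcium exchanger, read 7.44, 6.97, 7.43 and 6.83 in mutants and 7.59, 7.88, 7.58 and 7.52 in controls, with no overlap, as in 1.77% of all genes in that direction. Its difference was -0.48 (SE 0.17, limma adjusted p = 0.490) and -0.37 without mutant 2, and it was the 1 gene of the list with an unadjusted p under 0.05 (4.6% of all genes lower). The channel Trpv2 differed by -0.37 (SE 0.16) and the ATP-gated channel P2rx1 by -0.35 (SE 0.17). The brightest probe sets of the list, those of Pkd1 and Trpm7, differed by -0.15 (SE 0.14) and -0.23 (SE 0.11), and by -0.04 and -0.13 without mutant 2.

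Of 21 tested genes that act downstream of calcium in contraction and transcription, 16 were lower (55% of all genes), with a median difference of -0.08 that was -0.04 without mutant 2. At an unadjusted p under 0.05, 7 were lower (4.6% of all genes), and 0 passed after adjustment. Ppp1r14a, an inhibitor of myosin phosphatase, had the smallest p of the list, at 12.66 ± 0.26 in mutants and 13.25 ± 0.26 in controls (SD, n = 4 each), a difference of -0.59 (SE 0.06, limma adjusted p = 0.102) that was -0.55 without mutant 2. Myh11, the smooth muscle myosin heavy chain, differed by -0.21 (SE 0.05) and Cnn1, the actin-binding calponin, by -0.40 (SE 0.10). Every mutant was below every control in these 3 genes of the 21, as in 1.77% of all genes. Myl9 and Cald1, the brightest of the list, differed by -0.07 (SE 0.05) and -0.03 (SE 0.05), and by -0.04 and 0 without mutant 2. Myh11 and Cnn1 are also on the smooth muscle marker list, so both lists share values.

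**Figure D5:**
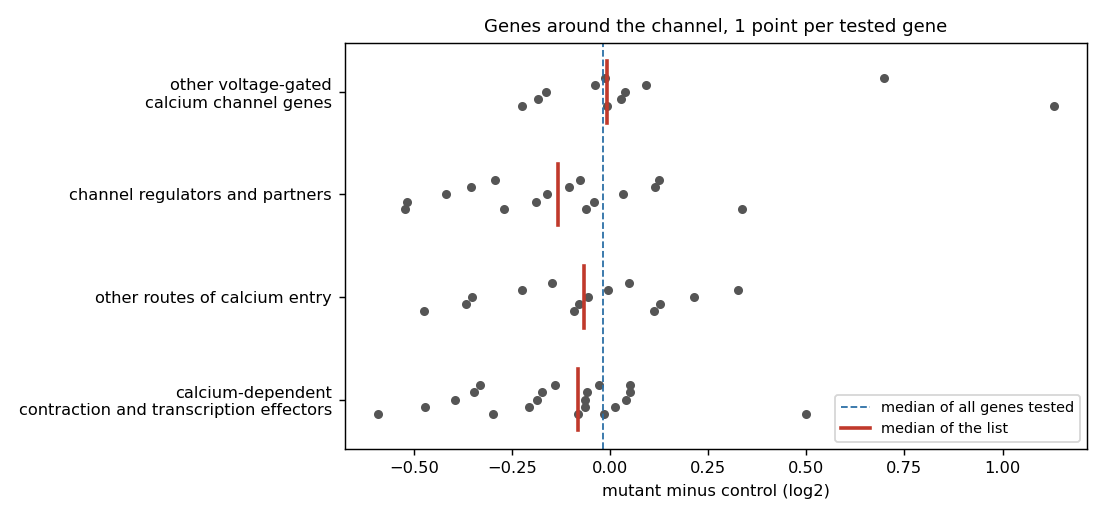
Mutant minus control on the log2 scale (horizontal axis) for each tested gene of 4 lists around the channel, with the list median in red and the median of all 12173 genes tested as a dashed line. The medians are -0.01, -0.13, -0.07 and -0.08 from top to bottom, against -0.02 for all genes.

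Genes with the most similar pattern were sought among 12172 genes, by Pearson correlation over the 8 arrays with set means removed, as a description. For Cacna1c they were Gemin5 (r = 0.984), Reps1 (r = 0.983) and Flna, the actin crosslinker filamin A (r = 0.982). For Cacna2d1 they were the transcription factor gene Tbx18, Josd2 and Fgl2 (r = 0.997, 0.996 and 0.996), and for Cacnb2 they were Cpne3, Bgn and Hdac1 (r = 0.993, 0.993 and 0.990). For Cacna1h they were Plpp6, Neurl1b and Gucy1a2 (r = 0.989, 0.984 and 0.983). Such values are common with 8 arrays: the gene ranked 1000 still had r of 0.79 to 0.90. Among the members, Cacna2d1 and Cacnb2 correlated at 0.893 over all arrays but at 0.241 without mutant 2, and Cacna1c with Cacna2d1 at 0.881 and 0.834. Cacna1h went against Cacna2d1 (r = -0.768), a value that was 0.09 without mutant 2.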

How the data were processed

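Total RNA of the aorta was hybridized to Affymetrix arrays from 2 ug per sample, per the labels' protocols. The authors deposited log2 values per probe set for 8 arrays, with GCOS named in the submitters' processing notes. How these values were background-corrected, normalized and summarized could not be taken from the labels. They run from 0.9 to 15.82, the span of log2 array signals. Of 45037 probe sets, 34945 have 1 gene symbol in the platform annotation and 932 have several.

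Dim probe sets, the 40% lowest by mean, were left out. The other 27021 were fitted in limma 3.58.1 (R 4.3.3) on genotype plus set, with eBayes allowing a trend of variance with mean, and p-values were adjusted by Benjamini-Hochberg (threshold 0.05). The set is the number that ends each title, so it is a block named by the labels. Differences are mutant minus control. A gene is represented by its brightest probe set, and a tie by the first in the table. The fit was tested on simulated data. Replicates were numbered in sample order, and equal numbers pair nothing. Members, gene lists, marker lists and alternatives were chosen with earlier results of these data known. Named genes were the members, Srf, the 3 genes with the smallest p and the 2 brightest of each list, and the 3 genes most like each member. The alternatives dropped the set term, each array in turn or either set, and changed the filter, the normalization (quantile, median centring), the variance model or the array weights. Figures used Python 3.11.15.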

Additional observations from a re-analysis of the deposited data

Results flagged for a closer look

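In Cacna1c probe set 1421297_a_at, mutant 1 (8.27) lay far above the other 3 mutants (7.72 to 7.81), with a gap of 0.836 of the range of its group, above the 95% critical value of Dixon's test for 4 samples. It was the 1 such case in 20 groups examined (10 probe sets in 2 groups), and chance gives about 1 in 20. Dixon's test pooled the sets, and mutants 3 and 4 belong to set 2. This probe set was lower in set 2 (set 2 minus set 1 -0.42, SE 0.12, limma adjusted p = 0.0535), a set term that did not pass. Mutant 2, in set 1 like mutant 1, read 7.81, as did mutant 3, so the gap is also present within set 1. Its cause was not tested.

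In Cacna2d1 probe set 1425861_x_at, both mutants of set 2 lay above the mean of their controls and both mutants of set 1 below theirs. The contrast differed by 0.995 (set 2 minus set 1, SE 0.63), and the interaction term did not pass (limma adjusted p = 0.824).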

How the results depend on the processing

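Over 18 alternatives, 179 values were obtained for the 10 member probe sets: 174 kept the direction and stayed above the threshold, 5 turned direction and 0 passed. Cacna1c 1421297_a_at ran from -0.68 to -0.39, with adjusted p from 0.141 (array weights) to 0.935 (no replicate block, that is without the set term, where its difference stayed -0.53). Cacna1h 1422710_a_at turned to -0.27 with array weights and ran from -0.29 to 0.85 over the arrays left out. Cacna2d1 1425861_x_at turned to 0.135 in set 2 alone and ran from -0.56 to 0.029 over the arrays left out. The cause was not tested.

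Probe sets passing over the whole array numbered 10 with array weights and 0 to 11 over the arrays left out (11 without control 3), none of them a member. At an unadjusted p under 0.05, the lower ones numbered 581 without the block, 832 in set 1, 780 in set 2 and 668 to 1746 over the arrays left out, and the higher ones 698 without the block, 705 in set 2 and 758 to 1302. With no filter, 36 probe sets differed in contrast between sets, against 14.

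The list medians moved with few settings. Other family genes were at -0.225 with the stricter filter, where fewer genes remain. Regulators were at -0.0688 with no filter and -0.205 with median centring. Other entry routes were at -0.0075 with no filter, -0.14 with median centring, 0.00838 with array weights and -0.132 to 0.007 over the arrays left out (0.007 without mutant 2). Effectors were at -0.155 with median centring and -0.16 in set 1, and at -0.0415 with array weights and -0.043 without mutant 2. The number of arrays limits the precision.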
